A study of Homo sapiens with 15 samples.

Results

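These results follow 9 genes of growth signal feedback and receptor kinase signalling, found by symbol in the deposited array values: the immediate-early genes EGR1 and FOS, the adaptor IRS1, the feedback inhibitors DUSP6, SPRY2 and SPRY4, and the receptor kinases AXL, MET and IGF1R. All 9 of 9 had a symbol, and all 9 passed the filter on dim probe sets, which 12147 genes in all passed. The choice of the genes used no measured value of its own rule, but it was made with earlier results of these arrays known. Each gene is represented by its brightest probe set. EGR1 and FOS each had 2 probe sets and the other genes 1.

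The arrays measured RNA of BT474 cells, a human breast cancer line with amplified HER2, and from clones of it that resist trastuzumab emtansine (T-DM1), which delivers a toxin of microtubules to cells by way of a HER2 antibody. There were 5 groups of 3 arrays, called biological replicates by the labels: the sensitive parental line and 4 resistant clones that the labels number with C#, here called clones 1, 2, 3 and 6. Each clone came from a single cell after prolonged exposure to T-DM1 and was kept in 5 nM of it for 3 months, and all groups grew in the same medium with serum. The labels do not say whether cells were harvested in the drug. Each clone is 1 line, its 3 arrays replicate that line only, and no cloned line without drug was measured, so that resistance, cloning and drug culture cannot be told apart. A lower share of cells expressing a gene and less RNA per cell cannot be told apart either.

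Growth factor receptors of the tyrosine kinase class pass their signal through adaptors such as IRS1 to PI3K and through RAS to the kinase ERK. Active ERK induces immediate-early transcription factors, EGR1 and FOS among them, within minutes of a stimulus. It also induces its own inhibitors: DUSP6 is a phosphatase that removes the activating phosphates of ERK, and the Sprouty proteins SPRY2 and SPRY4 restrain the signal from receptors to ERK. AXL, the receptor for GAS6, MET, the receptor for hepatocyte growth factor, and IGF1R, the receptor for insulin-like growth factors, are known as routes around HER2 in breast cancer cells.

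Values are log2 expression as deposited, so a difference of 1 is a 2-fold change. Levels of different genes are not compared, since probe sets differ in brightness. A gene is said to have risen or fallen where limma's adjusted p (Benjamini-Hochberg over all 12147 genes) was below 0.05. Upper quartiles per array were 5.94 to 5.96 in the parental line and 5.80 to 5.89 in the clones. Every parental array was thus above every clone array. Correlations across probe sets were 0.985 to 0.993 within groups and 0.975 to 0.991 between groups. Of 14 luminal markers 11 had a symbol and were detected, with mean levels of 8.52 to 9.12 per array. In clones 1, 2, 3 and 6, 3, 2, 5 and 5 of the 11 fell (against 11.2, 11.5, 11 and 14.7% of all genes). Rises numbered 1, 1, 0 and 1 (against 6.03, 5.47, 6.22 and 7.73%). Of the markers of other cell types, KRT5, MYLK, DCN, LUM, ZEB1, LYZ, PECAM1 and KDR did not pass the filter, while the mean of VIM and TWIST1 was 6.04 to 6.17 in parental arrays and 4.78 to 5.37 in clone arrays. KRT14 with OXTR, CD14 and VWF, the other detected markers of such lists, stood at 4.50 to 5.02, 3.33 to 3.94 and 3.73 to 4.17.

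EGR1 and FOS are shown with the 250 bases before their start because both are classic targets of ERK signalling and both were highest on the same parental array. The sequences come from RefSeq (GRCh38.p14), where all 9 genes had a window, 12 windows in all. EGR1 lies on chr5:138465229-138465478, plus strand, and FOS on chr14:75278578-75278827, plus strand. Capitals mark CArG boxes, which bind the serum response factor SRF, and the core TGACGT of the cAMP response element, on either strand.
EGR1: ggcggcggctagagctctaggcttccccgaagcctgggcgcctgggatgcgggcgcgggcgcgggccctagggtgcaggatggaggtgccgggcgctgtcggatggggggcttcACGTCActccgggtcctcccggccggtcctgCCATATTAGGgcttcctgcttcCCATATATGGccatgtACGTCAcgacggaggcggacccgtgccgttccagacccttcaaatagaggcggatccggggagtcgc
FOS: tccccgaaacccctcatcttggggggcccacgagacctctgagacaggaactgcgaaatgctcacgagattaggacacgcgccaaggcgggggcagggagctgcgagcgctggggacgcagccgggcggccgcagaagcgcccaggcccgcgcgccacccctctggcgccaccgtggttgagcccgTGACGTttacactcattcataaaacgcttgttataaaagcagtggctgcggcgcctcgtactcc

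In EGR1 the CArG boxes began 105 and 83 bases before the start, and the TGACGT cores 136 and 67 bases before it, with no overlap. In FOS 1 core began 64 bases before the start. EGR1 was the only listed gene with a CArG box in its window, a match that 1.16% of 35116 RefSeq windows of this length hold, and EGR1 and FOS were the only ones with the TGACGT core, held by 7.10% of windows. The AP-1 site TGANTCA (6.57% of windows) and the EGR site GCGTGGGCG (0.720%) were in no window of the 9 genes. The ETS site form GGAAGT (19.5%) was in 1, a window of SPRY2. All were searched on both strands, and a match is a description of the sequence only. Only these 250 bases were searched, so a CArG box further upstream, in FOS or another gene, would not be seen. Of ETS sites only the form GGAAGT was searched, and the EGR1 window holds another form, GGAAGC, on the minus strand.

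**Figure D1:**
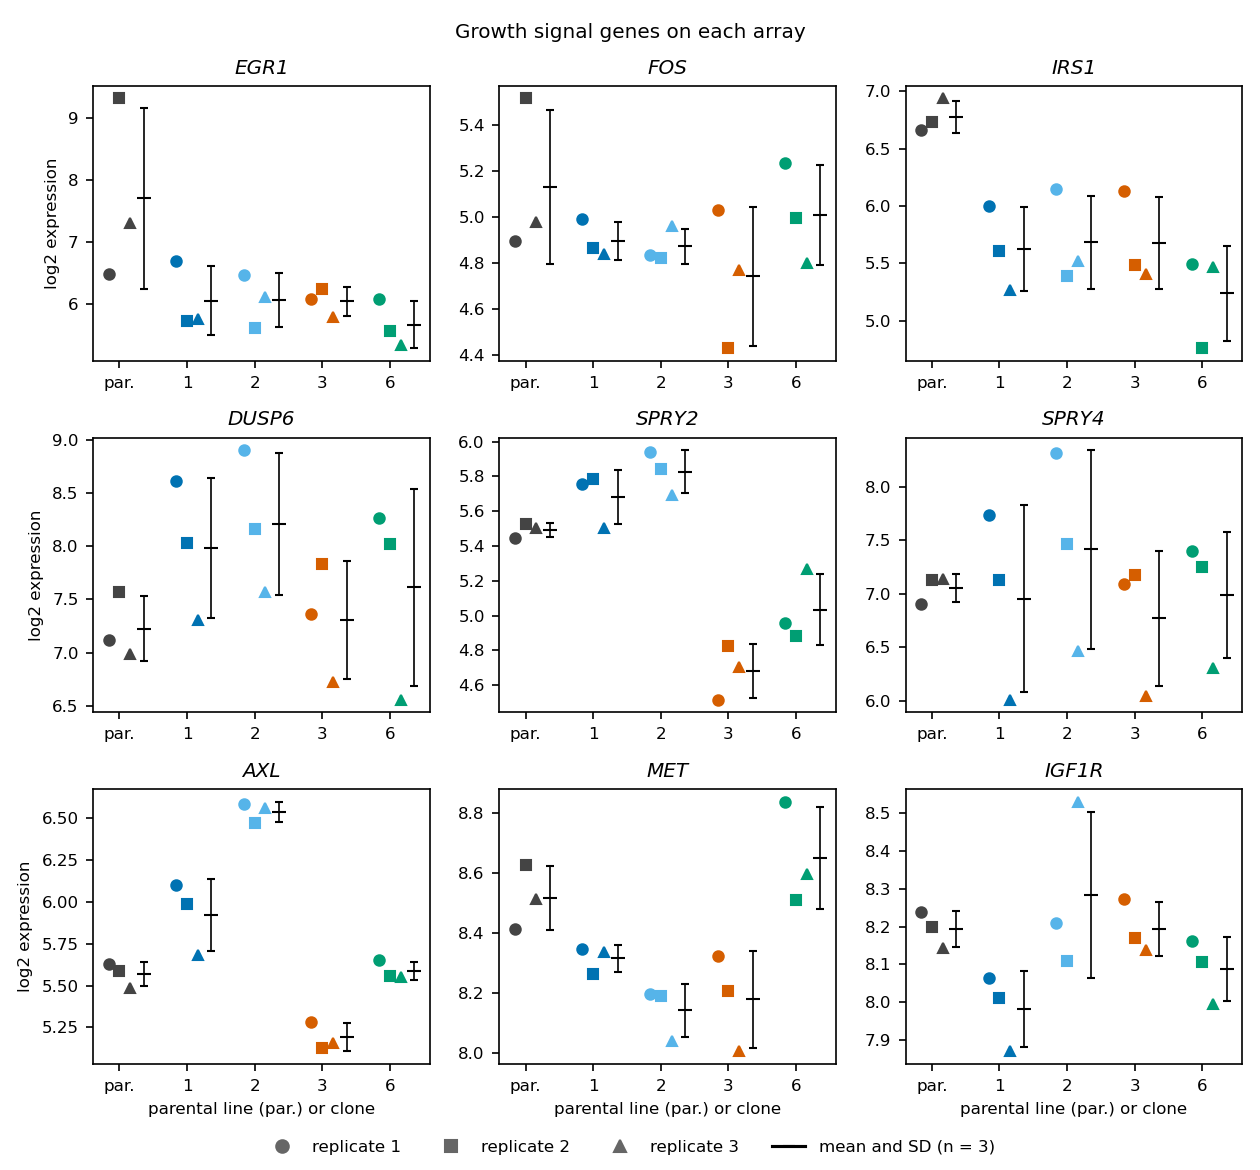
Log2 expression (y axis, own scale per gene) of the 9 genes on each of the 15 arrays, by group (x axis), with the marker giving the replicate and black bars the mean and SD of the 3 arrays. IRS1 lies below the parental line on all 12 clone arrays, AXL is highest in clone 2 (6.54) and lowest in clone 3 (5.19), and DUSP6 and SPRY4 spread widely within each clone.

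Set against the parental line, the 9 genes split into 3 kinds. EGR1 and IRS1 fell in all 4 clones. SPRY2, AXL and MET fell or rose in some clones and differed between them. FOS, DUSP6, SPRY4 and IGF1R were called in no clone. In clone 1, 1 gene rose (6.03% of all genes did) and 2 fell (11.2%), with 17.2% of all genes called in either direction. In clone 2, 1 rose (5.47%) and 3 fell (11.5%), with 16.9% called. In clone 3, 0 rose (6.22%) and 5 fell (11%), with 17.2% called. In clone 6, 0 rose (7.73%) and 3 fell (14.7%), with 22.4% called. The split of all genes into rises and falls depended on the scaling: renewed quantile normalization gave 971, 949, 1032 and 1330 higher and 1056, 1037, 1046 and 1314 lower in clones 1, 2, 3 and 6, against 733, 664, 756 and 939 higher and 1359, 1394, 1334 and 1785 lower as deposited. Arrays of clone 1 did not overlap the parental arrays in 1 gene above and 3 below (36.6% of all genes in either direction), and those of clone 2 in 3 above and 3 below (36.5%). In clone 3 it was 0 above and 5 below (38.9%), and in clone 6 0 above and 3 below (40.7%). The 2 genes lower in all 4 clones stand beside 3.65% of all genes, and the 0 genes higher in all 4 beside 1.04%. Of the 9 genes, 5 were called in at least 1 clone, against 37.5% of all genes. The 4 comparisons share the parental arrays, so their errors are shared too. The median change of the 9 genes was -0.20, 0.09, -0.38 and -0.11 in clones 1, 2, 3 and 6, and that of all genes lay between -0.02 and 0.00.

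**Figure D2:**
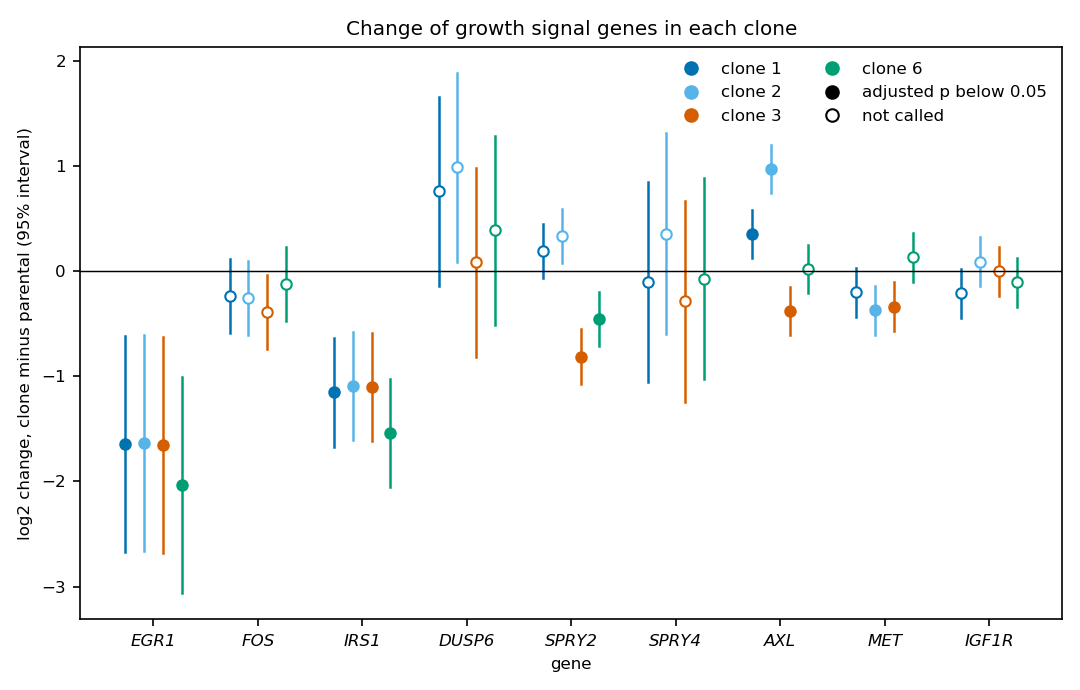
Log2 change from the parental line (y axis) of each gene (x axis) in clones 1, 2, 3 and 6, with 95% intervals from limma; filled points have an adjusted p below 0.05. EGR1 and IRS1 lie below 0 in every clone, AXL lies above 0 in clones 1 and 2 and below 0 in clone 3, and the intervals of DUSP6 and SPRY4 are wide.

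IRS1, the docking protein that joins the insulin and IGF receptors to PI3K, was lower in every clone. Its parental arrays read 6.67, 6.73 and 6.94. In clone 1 they read 6.00, 5.61 and 5.27, in clone 2 6.15, 5.39 and 5.52, in clone 3 6.13, 5.49 and 5.40, and in clone 6 5.49, 4.76 and 5.46. Every clone array was thus below every parental array. The fall was 1.15 ± 0.24 (SE), 1.09, 1.10 and 1.54 on the log2 scale in clones 1, 2, 3 and 6, or 2.13- to 2.91-fold (adjusted p = 0.00374, 0.00538, 0.00506 and 0.000273). All 4 calls held when any 1 array was left out. The clones themselves were not told apart: the largest difference, clone 2 minus clone 6, was 0.45 (95% interval -0.07 to 0.96, adjusted p = 0.286). The SD was 0.14 in the parental arrays and 0.36 to 0.42 in the clones.

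EGR1, an immediate-early transcription factor, was also lower in all 4 clones, but much of the distance came from 1 parental array. The parental arrays read 6.49, 9.31 and 7.31. In clone 1 the values were 6.69, 5.72 and 5.75, in clone 2 6.48, 5.61 and 6.12, in clone 3 6.09, 6.25 and 5.80, and in clone 6 6.09, 5.57 and 5.35. Clone 1 overlapped the parental range at its low end, and the other clones lay just below it. EGR1 fell, with changes in clones 1, 2, 3 and 6 of -1.64 ± 0.49 (SE), -1.63, -1.66 and -2.03 (adjusted p = 0.0274, 0.0290, 0.0269 and 0.00616), or 3.10- to 4.10-fold. Parental replicate 2 stood 2.42 above the mean of the other parental arrays, the widest such gap of all 12147 genes. Without it the changes were -0.84, -0.83 and -0.85 in clones 1, 2 and 3, no longer called (adjusted p = 0.103, 0.108 and 0.0990), and the change in clone 6 was -1.23 and stayed called (adjusted p = 0.0151). The calls in clones 1, 2 and 3 were also lost without either of 2 arrays of the clone concerned: replicate 2 or 3 of clone 1, replicate 2 or 3 of clone 2, and replicate 1 or 3 of clone 3 (changes between -1.68 and -1.40).

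A dimmer probe set of EGR1, near the filter with a mean of 3.75, changed by -0.24, -0.17, -0.42 and -0.42. With the mean of both probe sets the change in clone 2 was -0.90 and was not called (adjusted p = 0.0594). No pair of clones differed in EGR1; the widest difference, clone 2 minus clone 6, was 0.40 (95% interval -0.62 to 1.43).

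FOS, which forms AP-1 with the JUN proteins, was called in no clone. It read 4.90, 5.51 and 4.98 in the parental arrays, 4.99, 4.86 and 4.84 in clone 1, 4.83, 4.82 and 4.96 in clone 2, 5.03, 4.43 and 4.77 in clone 3, and 5.24, 4.99 and 4.80 in clone 6. All groups overlapped, and parental replicate 2 was again the highest array. The changes ran from -0.39 in clone 3 (95% interval -0.74 to -0.04, adjusted p = 0.125) to -0.12 in clone 6 (-0.47 to 0.23). The other probe set of FOS changed by -0.32, 0.20, -0.07 and -0.18. Falls of up to 0.74 therefore lie within the intervals.

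Parental replicate 2 was high in other immediate-early genes as well. JUN stood 1.21 above the mean of the other parental arrays, MYC 1.09, IER2 0.68, FOS 0.58, ATF3 0.55 and KLF6 0.48. DUSP6 stood 0.51 above it. Of 25 tested immediate-early genes, 12 were highest on replicate 2 among the parental arrays, against 29.9% of all genes. FOSL1 went the other way and stood 0.60 below, with replicate 3 the highest. The mean of the 25 genes, relative to each gene's own mean, was 0.04, 0.38 and 0.16 in the parental arrays and between -0.23 and 0.20 in the clone arrays. The part of cell handling or of this array in these values was not tested.

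**Figure D3:**
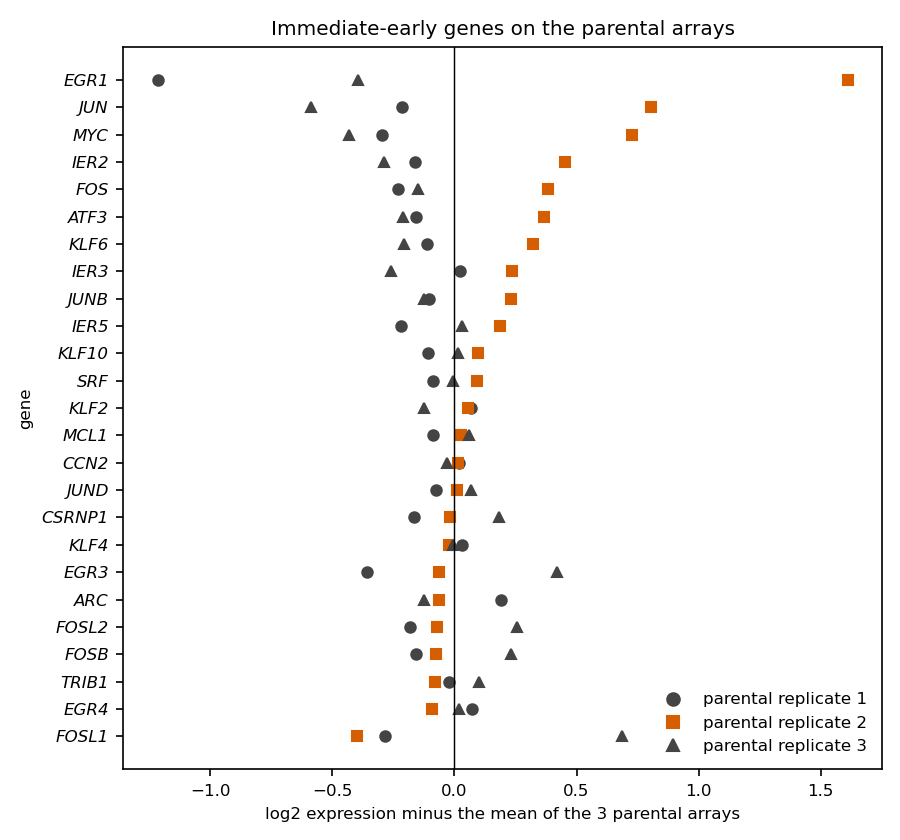
Log2 expression of 25 immediate-early genes (y axis) on each parental array, minus the gene's mean over the 3 parental arrays (x axis). Replicate 2 lies far to the right for EGR1, JUN and MYC, while FOSL1 is highest on replicate 3.

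Among the immediate-early genes, 25 of 33 listed were tested. In clones 1, 2, 3 and 6, 4, 2, 7 and 6 of the 25 fell (against 11.2, 11.5, 11 and 14.7% of all genes). Rises numbered 2, 3, 0 and 1 (against 6.03, 5.47, 6.22 and 7.73%), with medians of -0.17, -0.13, -0.30 and -0.24. Without parental replicate 2 the counts were 2, 0, 3 and 5 lower and 3, 1, 0 and 1 higher, and the medians -0.08, -0.04, -0.20 and -0.07. Calls over all genes dropped too without that array, to 984, 1026, 939 and 1360 lower and 475, 418, 429 and 602 higher. MYC, a growth-promoting transcription factor, fell by 1.30, 1.74 and 1.49 in clones 1, 3 and 6 (SE 0.31), from 7.10 ± 0.63 (SD, n = 3) in parental cells, and these calls held without any 1 array. Its changes were smaller without parental replicate 2, at -0.94, -1.37 and -1.13 in clones 1, 3 and 6. JUND, an AP-1 partner of FOS, fell by 0.59, 0.80 and 0.80 in the same clones (SE 0.16), the call in clone 1 being lost without parental replicate 3 or clone 1 replicate 3 (-0.56 and -0.46). TRIB1, a pseudokinase, fell by 0.73 in clone 3 and by 0.72 in clone 6 (SE 0.16). SRF, the factor that binds CArG boxes, fell by 0.37, 0.40, 0.38 and 0.53 (SE 0.11). Only its call in clone 6 held throughout. Those in clones 1, 2 and 3 were lost with renewed quantile normalization and without parental replicate 2, parental replicate 3, replicate 3 of clone 1, replicate 2 of clone 2, or replicate 1 or 2 of clone 3 (-0.40 to -0.27).

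Other immediate-early genes rose in some clones. IER3, a survival gene of this class, rose by 0.53 and 0.65 in clones 1 and 2 (SE 0.15); its other probe sets changed by 0.37 to 0.50 and by 0.33 to 0.61. Leaving out parental replicate 1 or 3 or clone 1 replicate 1 or 2 ended the call in clone 1 (0.40 to 0.55). KLF4, an epithelial transcription factor, rose by 0.53 in clone 1 and 0.35 in clone 2 and fell by 0.36 in clone 3 (SE 0.11). In clones 2 and 3 its calls were lost without any 1 of 5 and 6 arrays, every parental array among them (0.32 to 0.37 and -0.39 to -0.31), and in clone 3 with renewed quantile normalization. ARC rose by 0.42 in clone 2 and 0.45 in clone 6 (SE 0.12), calls lost without parental replicate 3 among 3 and 2 arrays (0.36 to 0.39 and 0.35 to 0.39).

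The feedback inhibitors DUSP6 and SPRY4 varied more within groups than between them. DUSP6, the phosphatase of ERK, read 7.12, 7.57 and 6.99 in parental cells, 8.61, 8.03 and 7.31 in clone 1, 8.90, 8.16 and 7.57 in clone 2, 7.36, 7.83 and 6.73 in clone 3, and 8.26, 8.02 and 6.56 in clone 6. Clone 2 alone lay wholly above the parental arrays, though only just (lowest clone 2 array 7.56861, highest parental array 7.56775). Its change was 0.98 ± 0.42 (SE; 95% interval 0.09 to 1.88, adjusted p = 0.126), and that in clone 1 was 0.76 (-0.14 to 1.66, adjusted p = 0.254). In clones 3 and 6 the changes were 0.08 and 0.39, with intervals from -0.82 to 0.98 and -0.51 to 1.29. With no replicate block, no pair of clones was called different. In a fit to the 6 arrays of the comparison alone, the change in clone 2 was called (adjusted p = 0.0424).

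SPRY4, the other inhibitor with a wide spread, read 6.90, 7.13 and 7.14 in parental cells and 7.73, 7.12 and 6.01 in clone 1. Clone 2 gave 8.32, 7.46 and 6.46, clone 3 7.09, 7.18 and 6.04, and clone 6 7.39, 7.25 and 6.31. Each clone thus straddled the parental range of 6.90 to 7.14. The changes were -0.10, 0.36, -0.29 and -0.07 (SE 0.45, adjusted p from 0.647 to 0.934), and the interval in clone 2 ran from -0.60 to 1.31, which includes a rise of more than 2-fold.

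The spread of these genes was itself unusual. Pooled over the groups, the SD within a group was 0.75 for EGR1, 0.69 for SPRY4 and 0.65 for DUSP6, ranks 3, 4 and 6 of 12147 genes, against a median of 0.16. Most of the spread of EGR1 lay in the parental group (SD 1.45, and 0.23 to 0.55 in the clones), whereas SPRY4 had an SD of 0.13 in parental cells and 0.59 to 0.93 in the clones. Replicate 3 was the lowest array for both DUSP6 and SPRY4 in all 4 clones, which held for 1.84% of all genes. For DUSP6 it was also the lowest parental array. Replicate 1 was the highest array for IRS1, AXL and MET in all 4 clones, which held for 4.36% of all genes. Across the 15 arrays the levels of DUSP6 and SPRY4 correlated at 0.83 (Pearson), a description of arrays that share groups and replicate numbers. Why replicate 3 was low in some genes and replicate 1 high in others was not tested.

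**Figure D4:**
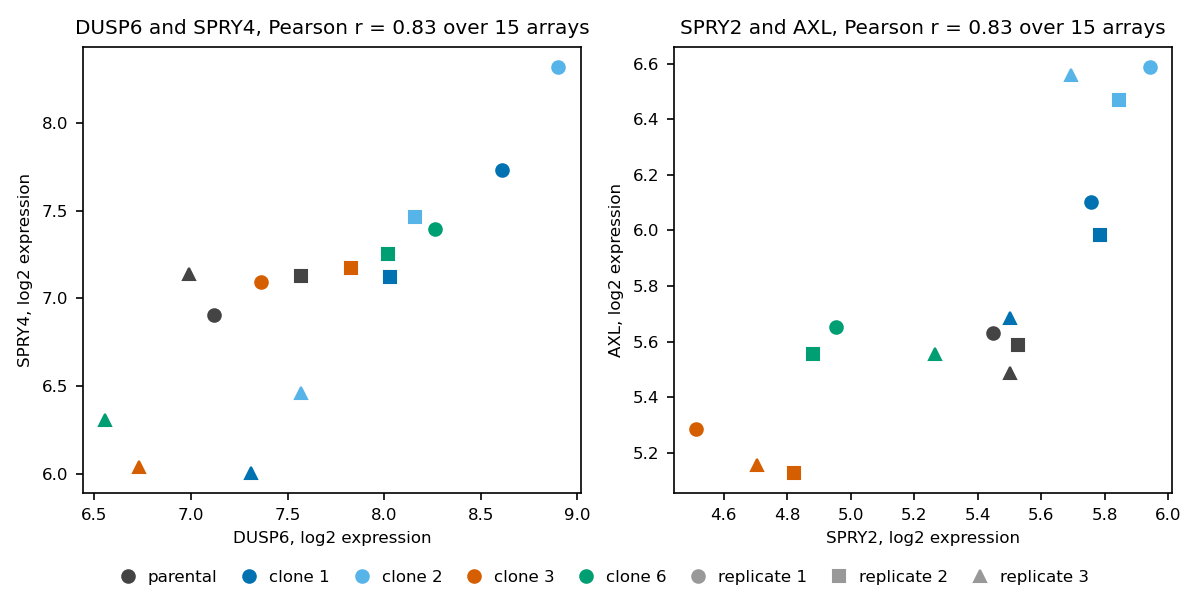
Left, log2 expression of DUSP6 (x axis) and SPRY4 (y axis) on each of 15 arrays; right, the same for SPRY2 and AXL. Colours give the group and marker shapes the replicate; the replicate 3 arrays of the 4 clones lie at the low end on the left, while the right panel separates clone 2 at the top from clone 3 at the bottom.

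SPRY2, the Sprouty family member with a narrow spread, divided the clones. Parental arrays read 5.45, 5.53 and 5.50. Clone 1 gave 5.76, 5.79 and 5.50, clone 2 5.94, 5.85 and 5.70, clone 3 4.51, 4.82 and 4.70, and clone 6 4.95, 4.88 and 5.27. Clones 3 and 6 lay wholly below the parental line and below clones 1 and 2. SPRY2 fell by 0.81 ± 0.12 (SE) in clone 3, or 1.76-fold (adjusted p = 0.000305), and by 0.46 in clone 6 (1.37-fold, adjusted p = 0.0121). The call in clone 6 was lost without clone 6 replicate 2 (-0.38, adjusted p = 0.0629). In clones 1 and 2 the changes were 0.19 (adjusted p = 0.328) and 0.33 (adjusted p = 0.0711). With renewed quantile normalization the change in clone 2 was 0.39 and was called (adjusted p = 0.0402), and so it was in a fit to the 6 arrays of that comparison (adjusted p = 0.0496).

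Direct tests between clones set SPRY2 apart. It was higher in clone 1 than in clone 3 by 1.00 (adjusted p = 3.80e-05) and than in clone 6 by 0.65 (adjusted p = 0.00209). In clone 2 it was higher than in clone 3 by 1.15 (adjusted p = 1.19e-05) and than in clone 6 by 0.79 (adjusted p = 0.000484). All 4 differences held without any 1 array. The order of the levels was thus clone 2, clone 1, parental, clone 6 and clone 3. The neighbours in that order that were not told apart were clone 2 and clone 1 (-0.14, adjusted p = 0.883), clone 1 and parental, and clone 6 and clone 3 (adjusted p = 0.0855).

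The list of ERK feedback inhibitors and output genes holds DUSP6, SPRY2 and SPRY4, and 25 of its 34 genes were tested. In clones 1, 2, 3 and 6, 4, 2, 3 and 6 of the 25 fell (against 11.2, 11.5, 11 and 14.7% of all genes). Rises numbered 2, 1, 0 and 0 (against 6.03, 5.47, 6.22 and 7.73%), with medians of -0.05, 0.00, -0.12 and -0.07. With renewed quantile normalization, which also moved the split of all genes towards rises, 3, 2, 2 and 4 fell and 2, 3, 0 and 1 rose. DUSP14, a phosphatase of the same family as DUSP6, fell by 0.87, 0.95 and 0.55 in clones 1, 2 and 6 (SE 0.13). DUSP8, which acts mainly on the stress kinases JNK and p38, fell by 0.52, 0.40, 0.55 and 0.71 in clones 1, 2, 3 and 6 (SE 0.10), the call in clone 2 being lost without parental replicate 3 or clone 2 replicate 2 (-0.36 and -0.35). By contrast DUSP4, a nuclear phosphatase of ERK, rose by 0.57 and 0.65 in clones 1 and 2 (SE 0.13), from 8.87 ± 0.13 (SD, n = 3). NF1, which switches off RAS, rose by 0.40 in clone 1 (SE 0.10). IL17RD, an inhibitor of FGF receptor signalling, fell by 0.58 in clone 6 (SE 0.13) and by 0.40 in clone 3, a call that ended on removal of any 1 of 10 arrays (-0.46 to -0.32), and with no dim filter, renewed quantile normalization, median centring or the trend and robust settings. ERRFI1, which inhibits EGFR and HER2, fell by 0.64 in clone 6 (SE 0.21), a call lost without any 1 of 5 arrays, every parental array among them (-0.73 to -0.52), and with renewed quantile normalization.

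AXL, of the 3 receptor kinases, was called in the most pairs of clones (5 of 6). Its parental arrays read 5.63, 5.59 and 5.49. Clone 1 gave 6.10, 5.98 and 5.68, clone 2 6.59, 6.47 and 6.56, clone 3 5.29, 5.13 and 5.16, and clone 6 5.65, 5.56 and 5.55. Clones 1 and 2 lay wholly above the parental line, clone 3 wholly below it, and clone 6 overlapped it. AXL rose by 0.97 ± 0.11 (SE) in clone 2, or 1.96-fold (adjusted p = 1.82e-05), and by 0.35 in clone 1 (1.28-fold, adjusted p = 0.0300). It fell by 0.38 in clone 3 (1.30-fold, adjusted p = 0.0219). In clone 6 the change was 0.02 (95% interval -0.21 to 0.24, adjusted p = 0.931). The call in clone 2 held without any 1 array. That in clone 1 was lost without any 1 parental array or without clone 1 replicate 1 or 2 (0.27 to 0.39), and that in clone 3 without parental replicate 1 or 2 or clone 3 replicate 2 or 3 (-0.37 to -0.35).

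Between clones, AXL was higher in clone 2 than in clone 3 by 1.35, or 2.55-fold (adjusted p = 8.63e-07), and than in clone 6 by 0.95 (adjusted p = 2.45e-05). It was higher in clone 1 than in clone 3 by 0.73 (adjusted p = 0.000201). These 3 differences held without any 1 array. AXL was also lower in clone 3 than in clone 6 by 0.40 (adjusted p = 0.0265), a call lost without clone 3 replicate 2 or 3 or any 1 array of clone 6 (-0.41 to -0.36). That call was also lost in a fit to the 6 arrays of clones 3 and 6. The difference of 0.34 between clones 1 and 6 was at the threshold (adjusted p = 0.0484) and was lost without any 1 of 14 arrays (0.25 to 0.37). Clones 1 and 2, in which 0% of all 12147 genes passed limma's test (807 did at an unadjusted p below 0.05), differed in AXL by -0.61 (95% interval -0.84 to -0.39, adjusted p = 0.0658), with every clone 1 array below every clone 2 array. That difference was called with renewed quantile normalization (-0.63, adjusted p = 0.0475). In order the levels ran from clone 2 through clone 1, clone 6 and parental to clone 3, and the neighbours not told apart were clones 2 and 1, and clone 6 and the parental line.

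MET followed another order, with clone 6 highest. Parental arrays read 8.41, 8.63 and 8.51, clone 1 8.35, 8.26 and 8.34, clone 2 8.20, 8.19 and 8.04, clone 3 8.32, 8.21 and 8.01, and clone 6 8.84, 8.51 and 8.60. Clones 1, 2 and 3 lay wholly below the parental arrays, and clone 6 overlapped them. MET fell by 0.37 ± 0.11 (SE) in clone 2, or 1.30-fold (adjusted p = 0.0277), and by 0.34 in clone 3 (1.26-fold, adjusted p = 0.0449). In clone 1 the change was -0.20 (95% interval -0.44 to 0.03) and in clone 6 0.13 (-0.10 to 0.37), neither called. Both calls were lost with renewed quantile normalization (-0.31 and -0.28, adjusted p = 0.0744 and 0.103). They were also lost without any 1 of 4 arrays for clone 2, parental replicates 2 and 3 and clone 2 replicates 2 and 3 (-0.40 to -0.32), and without any 1 of 9 arrays for clone 3, every parental array among them (-0.39 to -0.25).

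MET differed between clones more firmly than from the parental line. It was lower than in clone 6 by 0.51 in clone 2 (adjusted p = 0.00632), a difference that held without any 1 array, and by 0.47 in clone 3 (adjusted p = 0.0122), lost without clone 3 replicate 3 or clone 6 replicate 1 (-0.38). The call between clones 3 and 6 was also lost in a fit to the 6 arrays of these clones. The difference of -0.33 between clones 1 and 6 missed the threshold (adjusted p = 0.0589). Neighbouring levels, from clone 6 through parental, clone 1 and clone 3 to clone 2, were not told apart.

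IGF1R, through which insulin-like growth factors act, was called nowhere. Parental arrays read 8.24, 8.20 and 8.14, clone 1 8.06, 8.01 and 7.87, clone 2 8.21, 8.11 and 8.53, clone 3 8.27, 8.17 and 8.14, and clone 6 8.16, 8.11 and 7.99. Clone 1 lay wholly below the parental line, and the others overlapped it. The changes were -0.21 (95% interval -0.45 to 0.02, adjusted p = 0.211), 0.09 (-0.14 to 0.32), 0.00 (-0.23 to 0.23) and -0.11 (-0.34 to 0.12) in clones 1, 2, 3 and 6. Between clones 1 and 2 the difference was -0.30 (95% interval -0.53 to -0.07, adjusted p = 0.644).

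Counted over the direct tests, an F test called 3 of the 9 genes (SPRY2, AXL and MET) as different among the 4 clones, against 22.5% of all genes. By pair, 0 of 9 genes were called for clone 1 against clone 2 (0% of all genes called by limma; 2 of the 9 had an unadjusted p below 0.05, AXL and IGF1R). For clone 1 against clone 3 there were 2 (16.8% of all genes called), and against clone 6 also 2 (12.7%). Clone 2 differed from clone 3 in 2 (15.8%) and from clone 6 in 3 (11.2%). Clone 3 differed from clone 6 in 2 (9.01%). Over the 15 arrays SPRY2 and AXL correlated at 0.83 and EGR1 and IRS1 at 0.75, while MET correlated with AXL at -0.28. These values describe arrays that share 5 groups.

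Genes with the most similar pattern over the 15 arrays were taken from all 12147. For IRS1 these were COX19 (Pearson r = 0.94) and SESN2 (0.94), for SPRY2 CD99 (0.96) and PDLIM1 (0.95), and for AXL DGAT2 (0.96) and EMC7 (0.95). EGR1 was closest to CISH (0.86) and INTS3 (0.85), DUSP6 to TULP1 (0.85) and IER3 (0.85), SPRY4 to NFKB2 (0.83) and EMX1 (0.83), and MET to ERI2 (0.87) and NIPSNAP2 (0.86). FOS and IGF1R had looser matches, LINC01018 (0.82) and FLT3LG (0.77) for FOS and MIR541 (0.79) and RPS29 (0.79) for IGF1R.

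Around IRS1 and IGF1R, the insulin, PI3K and mTOR pathway moved both ways. Of 48 listed genes 29 were tested, and 5, 5, 5 and 6 fell in clones 1, 2, 3 and 6 (against 11.2, 11.5, 11 and 14.7% of all genes). Rises numbered 5, 5, 2 and 3 (against 6.03, 5.47, 6.22 and 7.73%), with medians of -0.02, -0.01, -0.13 and -0.04. INSR, the insulin receptor, rose by 0.79, 0.79 and 0.53 in clones 1, 2 and 6 (SE 0.12), from 6.22 ± 0.21 (SD, n = 3). IGF2R, which clears IGF2, rose by 0.64, 0.77 and 0.62 in the same clones (SE 0.10). DEPTOR, an inhibitor of mTOR, rose by 0.98 and 1.06 in clones 1 and 2 (SE 0.23), and EIF4EBP1, a repressor of translation that mTOR inactivates, by 0.76 and 0.87 (SE 0.17). In the other direction, GRB10, an adaptor that inhibits the insulin receptor, was down in clones 1, 2 and 6, where it fell by 0.82, 0.65 and 0.50 (SE 0.12).

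IGFBP5, a secreted binding protein of insulin-like growth factors, fell by 0.98, 0.93, 0.77 and 0.59 (SE 0.17), from 11.80 ± 0.13 (SD, n = 3). Its call in clone 6 was lost without parental replicate 2 or 3 or clone 6 replicate 2 or 3 (-0.59 to -0.50). The sestrins, stress-induced inhibitors of mTOR, were called in 1 clone each. SESN3 fell by 0.91 in clone 3 (SE 0.24), lost without parental replicate 2 or clone 3 replicate 3 (-0.83 and -0.82), and SESN2 fell by 0.84 in clone 6 (SE 0.22), lost without clone 6 replicate 2 (-0.70). The mean of SESN3 in clone 3 was 3.82, near the filter at 3.56 to 3.62.

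Of 54 listed receptor kinases outside the HER family 39 were tested, AXL, MET and IGF1R included. In clones 1, 2, 3 and 6, 3, 4, 5 and 2 fell (against 11.2, 11.5, 11 and 14.7% of all genes). Rises numbered 5, 6, 1 and 6 (against 6.03, 5.47, 6.22 and 7.73%), with medians between -0.03 and 0.00. Renewed quantile normalization gave 4, 2, 4 and 2 lower and 6, 6, 4 and 6 higher, beside the like shift towards rises over all genes (in clone 3 from 756 to 1032 higher). MERTK, the relative of AXL that also binds GAS6, rose by 0.91, 1.03 and 0.78 in clones 1, 2 and 6 (SE 0.18), from 6.36 ± 0.12 (SD, n = 3), and these calls held without any 1 array. FGFR3 rose by 0.65 in clone 2 (SE 0.15). FLT3 rose by 0.57 in clone 6 (SE 0.19), a call lost without any 1 of 5 arrays, every parental array among them (0.43 to 0.64). EPHA7, an ephrin receptor, fell by 0.45, 0.54, 0.58 and 0.56 (SE 0.12), its call in clone 1 being lost without parental replicate 3 or clone 1 replicate 3 (-0.41 and -0.33). EPHB6 fell by 0.62 in clone 6 (SE 0.15). RET, the receptor for GDNF family ligands, fell by 0.63 in clone 3 (SE 0.16), lost without parental replicate 1 or clone 3 replicate 1 (-0.55 and -0.50), and ROR1 by 0.63 in clone 1 (SE 0.18), lost without parental replicate 3 or clone 1 replicate 1 or 2 (-0.61 to -0.53). The mean of ROR1 in clone 1 was 3.87, near the filter at 3.56 to 3.62.

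Of 39 genes listed as ligands of these receptors, 27 were tested. In clones 1, 2, 3 and 6, 3, 4, 3 and 3 fell (against 11.2, 11.5, 11 and 14.7% of all genes). Rises numbered 1, 1, 2 and 1 (against 6.03, 5.47, 6.22 and 7.73%), with medians between -0.02 and 0.01. Renewed quantile normalization gave 3, 4, 2 and 1 lower and 1, 1, 2 and 1 higher. Ephrins, the membrane-bound ligands of EPH receptors, made up much of the group. EFNA4 fell by 0.92, 0.77 and 0.64 in clones 1, 2 and 6 (SE 0.13). EFNA5 fell by 0.79, 0.92 and 0.49 in clones 1, 2 and 3 (SE 0.14), the call in clone 3 being lost without parental replicate 2 or 3 or clone 3 replicate 2 or 3 (-0.51 to -0.35). In clone 3 EFNB1 fell by 0.92 (SE 0.14), whereas EFNB2 rose by 0.51 (SE 0.12) and EFNB3 by 0.43 (SE 0.10), the last lost without parental replicate 3 (0.39). EFNB1 also fell by 0.40 in clone 6, a call that ended on removal of any 1 of 10 arrays (-0.42 to -0.32), with no dim filter and with renewed quantile normalization. FGF13, on the list by its family but not a secreted ligand, rose by 0.49, 0.35 and 0.47 in clones 1, 2 and 6 (SE 0.11). It was the only gene of the list called higher in these clones. Its call in clone 2 ended without any 1 of 5 arrays, every parental one included (0.30 to 0.37), or with arrays centred on their median. KITLG, the ligand of KIT, fell by 0.91 in clone 2 (SE 0.25), lost without parental replicate 1 or 3 or clone 2 replicate 1 (-0.92 to -0.64).

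Between receptors and ERK, 18 of 28 listed genes of the RAS to ERK core were tested. In clones 1, 2, 3 and 6, 2, 3, 6 and 6 of them fell (against 11.2, 11.5, 11 and 14.7% of all genes). Rises numbered 1, 2, 0 and 0 (against 6.03, 5.47, 6.22 and 7.73%), with medians of -0.10, -0.07, -0.20 and -0.21. MAP2K1, the kinase that activates ERK, rose by 0.47 and 0.45 in clones 1 and 2 (SE 0.10) and fell by 0.36 in clone 3, where the call was lost with renewed quantile normalization and without parental replicate 1 or 2 or clone 3 replicate 2 (-0.34 to -0.29). MKNK2, a kinase downstream of ERK, fell by 0.81 in clone 3 and by 0.71 in clone 6 (SE 0.18). RRAS, a RAS family member, fell by 1.08 in clone 6 (SE 0.26). SOS1, an activator of RAS, fell in clone 2 by 0.65 and in clone 6 by 0.51 (SE 0.15), the latter lost without parental replicate 2 or 3 or clone 6 replicate 2 or 3 (-0.52 to -0.47). The adaptor GAB1 fell by 0.35, 0.40 and 0.54 in clones 1, 2 and 3 (SE 0.11); the calls in clones 1 and 2 were lost with renewed quantile normalization, in clone 1 also with the trend and robust settings, and without any 1 of 7 and 2 arrays, parental replicate 2 among them (-0.38 to -0.30). GAB2 rose by 0.36 in clone 2 and fell by 0.33 in clone 3 (SE 0.10), calls lost without any 1 of 3 and 5 arrays, parental replicates 2 and 3 among them (0.33 to 0.36 and -0.36 to -0.30). GAB2 was dim, with means of 4.39 in clone 2 and 3.71 in clone 3, near the filter at 3.56 to 3.62.

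**Figure D5:**
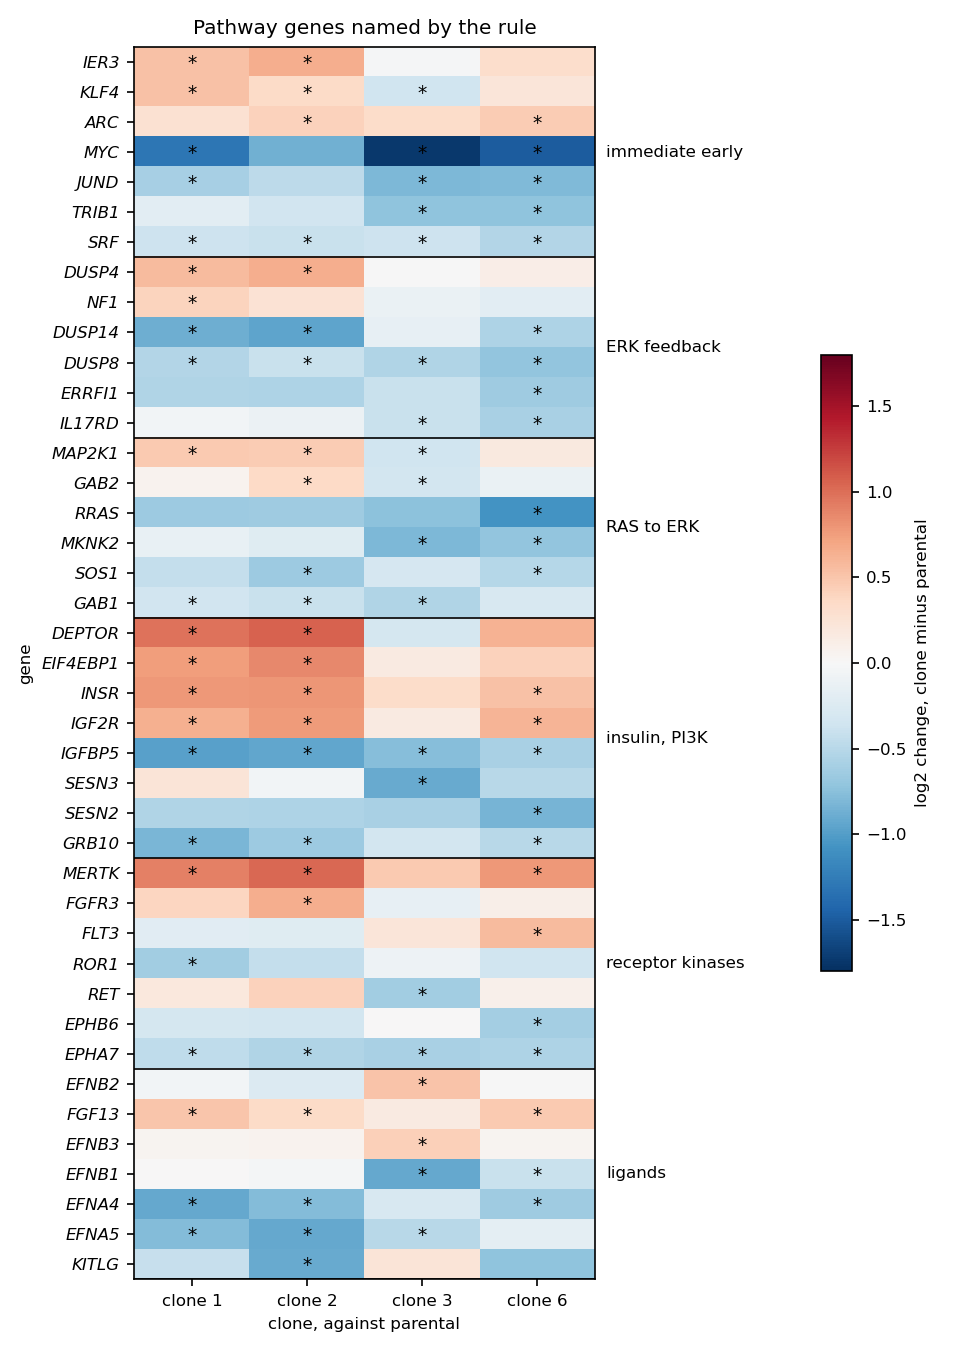
Log2 change from the parental line (colour scale) in clones 1, 2, 3 and 6 (columns) of the pathway genes named by the rule (rows), by list; a star marks an adjusted p below 0.05. MYC falls by 1.74 in clone 3, and DEPTOR and MERTK rise by 1.06 and 1.03 in clone 2. No gene with a star for a rise in clone 1 or 2 has a star for a rise in clone 3.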

How the data were processed

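The table deposited by the authors gives log2 values of 53617 probe sets on 15 arrays. Named in the submitters' processing notes are the Transcriptome Analysis Console, Affymetrix Expression Console 1.4.1 and RMA; the genome build and the step each tool did are not given in the sources used here. As background, RMA makes the arrays' distributions alike and compresses changes near background.

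Symbols came from the platform annotation, matched by gene identifier to RefSeq (16098 probe sets with 1 symbol, 0 with several, 37519 with none here). A probe set stayed in if it exceeded its array's percentile of 40 on at least 3 arrays, and each gene kept the one with the highest mean. limma 3.58.1 in R 4.3.3 (lmFit, eBayes) fitted 1 mean per group to all 15 arrays, with no block. The steps were tested on simulated data. Promoter windows came from the RefSeq table; figures used matplotlib 3.10.9.

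The 9 genes and the 6 pathway lists were chosen with earlier results of these arrays known. Named genes are the 9 and, per list, up to 4 higher and 4 lower called genes whose clone arrays all lay beyond the parental ones, by size. The similar genes are the 2 with the highest Pearson correlation. Alternatives were the dim filter, quantile normalization, median centring, a replicate block, leaving out each array, the 6 arrays alone, eBayes settings, array weights, the mean of probe sets and adjusted p below 0.01. The list counts without parental replicate 2 were added after seeing the data. P-values measure the spread between these replicates; the number of arrays limits precision.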

Additional observations from a re-analysis of the deposited data

Results flagged for a closer look

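Direct tests of one clone against another passed in these cases (limma, adjusted p below 0.05; log2, the clone named earlier minus the other). SPRY2 differed by 1.00 for clone 1 against clone 3, by 0.65 for clone 1 against clone 6, by 1.15 for clone 2 against clone 3, and by 0.79 for clone 2 against clone 6. AXL differed by 0.73 for clone 1 against clone 3 and by 0.34 for clone 1 against clone 6. For clone 2 AXL was higher by 1.35 than in clone 3 and by 0.95 than in clone 6, and clone 3 against clone 6 gave -0.40. MET gave -0.51 for clone 2 against clone 6 and -0.47 for clone 3 against clone 6. Single arrays were not tested as outliers, since each group has 3.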

How the results depend on the processing

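No called change of the 9 genes turned its direction under any alternative run. Counts of the 9 genes called moved as follows. Against the parental line, leaving out 1 array at a time gave 1 to 3 for clone 1, 2 to 4 for clone 2, 2 to 5 for clone 3 and 2 to 3 for clone 6. For clone 1 it gave 0 to 0 against clone 2, 2 to 2 against clone 3 and 1 to 2 against clone 6. For clone 2 it gave 2 to 2 against clone 3 and 3 to 3 against clone 6, for clone 3 against clone 6 it gave 0 to 2, and the F test gave 3 throughout. The lowest counts against the parental line came without parental replicate 2 (1, 2 and 2 in clones 1, 2 and 3), and also without clone 1 replicate 2 (1), clone 2 replicate 2 or 3 (2) and clone 3 replicate 3 (2). Fitting only the 6 arrays concerned gave 1 for clone 1 and 3 for clone 3 against parental, and, against clone 6, 1 for clone 1 and 0 for clone 3. An adjusted p below 0.01 gave 1, 2 and 2 for clones 1, 2 and 3, and, against clone 6, 1 for clone 1 and 0 for clone 3. The count between clones 1 and 6 was 1 with no dim filter, with renewed quantile normalization and with median centring, and that between clones 1 and 2 was 1 with renewed quantile normalization. The cause of these shifts was not tested.

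Replicate numbers were not taken to pair the samples, since the labels state no pairing. Of pairs of arrays with the same number, 10 of 30 had deviations correlated above 0.1 (median 0.05, -0.13 to 0.46). Of pairs with different numbers 7 of 60 did (median -0.02), and 9 of 15 arrays correlated best with their own number. These values are a hint of pairing from the data and not the design, and whether replicates of the same number share a batch was not tested. With the number as a replicate block, 1 gene (AXL) was called between clones 1 and 2, and DUSP6 was called in clone 1 (0.76, adjusted p = 0.0416), in clone 2 (0.98, adjusted p = 0.0111) and between clones 2 and 3 (0.90, adjusted p = 0.0187). The call of IL17RD in clone 3 was lost with this block.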
